A study of Mus musculus with 2 samples.

Results

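The genes described here are *Trem2*, *Tyrobp*, *Hcst*, *Syk*, *Plcg2*, *Inpp5d*, *Cd33* and *Grn*, 8 of the 32285 genes in the tables, taken by their symbols. They encode a lipid-sensing receptor of microglia, proteins through which it signals or that hold it back, and progranulin (*Grn*). Each symbol matched 1 row, and all 8 genes passed the filter on low counts in microglia-like cells. Their transcripts were counted in single CD45+ cells sorted from the brains of 8 mice, all 12 weeks old. The 4 control mice were Cre-negative Arpc4 fl/fl littermates. The 4 Arpc4ΔCx3cr1 mice carried Tg(Cx3cr1-Cre) on the same Arpc4 fl/fl background, so the floxed allele was shared by all 8 mice and only the Cre differed. The Cre acts from the onset of development in brain myeloid cells, which include microglia and other macrophages. All control mice were male, and 1 of the Arpc4ΔCx3cr1 mice was female, without the labels saying which. The paper left this female mouse out of its downstream single-cell analysis, while all 8 mice are used here. The comparison asks how the genes of this receptor pathway are expressed in microglia that lack ARPC4, a subunit of the Arp2/3 complex that nucleates branched actin.

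TREM2 binds phospholipids, lipoproteins and apolipoproteins at the surface of microglia, and cannot signal on its own. It pairs in the membrane with TYROBP (DAP12), whose tail carries an ITAM motif, and also with the related adaptor HCST (DAP10), which recruits phosphatidylinositol 3-kinase. Src family kinases phosphorylate the ITAM, the kinase SYK docks on it, and SYK in turn activates the phospholipase PLCG2 and the calcium and lipid signals that follow. INPP5D (SHIP1) removes a phosphate from the lipid made by phosphatidylinositol 3-kinase, and CD33 is a Siglec, a receptor for sialic acids that in humans dampens ITAM signalling and whose tail differs in the mouse. *Grn* encodes progranulin, a secreted and lysosomal protein of microglia. In the brain, *TREM2* and *TYROBP* are known for loss-of-function mutations that cause Nasu-Hakola disease, and *TREM2*, *PLCG2*, *INPP5D* and *CD33* lie at loci associated with the risk of Alzheimer's disease.

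On mm10, in the GENCODE vM21 annotation, *Trem2* (ENSMUSG00000023992) lies at chr17:48346401-48354147 on the plus strand. *Tyrobp* (ENSMUSG00000030579, chr7:30413760-30417585, plus strand) and *Hcst* (ENSMUSG00000064109, chr7:30417712-30419854, minus strand) are neighbours that point at each other, with 126 bases between their ends. *Syk* (ENSMUSG00000021457) lies at chr13:52583173-52648792, *Plcg2* (ENSMUSG00000034330) at chr8:117498291-117635142, *Inpp5d* (ENSMUSG00000026288) at chr1:87620312-87720507 and *Grn* (ENSMUSG00000034708) at chr11:102430315-102437048, all on the plus strand. *Cd33* (ENSMUSG00000004609) lies at chr7:43524216-43544428 on the minus strand. No gene on the same strand overlaps any of the 8, so their reads are not split between genes on one strand. *Plcg2* has *Gm27361* and *Grn* has *Fam171a2* on the other strand.

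Macrophage genes are commonly driven by PU.1, a factor that binds purine-rich stretches with the core AGGAAG, and the bases upstream of the receptor, 1 adaptor and the lipid phosphatase are shown because they hold these letters and no annotated exon. The windows are RefSeq promoter sequence of GRCm38.p6, 250 bases that end just before the start site, written 5′ to 3′ along the strand of the gene, with AGGAAG or its reverse complement CTTCCT in capitals. The *Trem2* window is chr17:48346151-48346400 (plus strand), that of *Hcst* is chr7:30419855-30420104 (minus strand) and that of *Inpp5d* is chr1:87620062-87620311 (plus strand).
Trem2: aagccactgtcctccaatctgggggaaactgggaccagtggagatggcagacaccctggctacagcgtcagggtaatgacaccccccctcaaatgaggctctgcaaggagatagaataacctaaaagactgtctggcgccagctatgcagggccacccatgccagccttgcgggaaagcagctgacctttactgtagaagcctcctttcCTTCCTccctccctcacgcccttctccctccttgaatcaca
Hcst: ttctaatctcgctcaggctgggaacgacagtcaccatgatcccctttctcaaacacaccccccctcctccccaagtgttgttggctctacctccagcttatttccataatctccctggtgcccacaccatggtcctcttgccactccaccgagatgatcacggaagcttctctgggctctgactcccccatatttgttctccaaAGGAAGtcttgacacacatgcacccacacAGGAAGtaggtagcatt
Inpp5d: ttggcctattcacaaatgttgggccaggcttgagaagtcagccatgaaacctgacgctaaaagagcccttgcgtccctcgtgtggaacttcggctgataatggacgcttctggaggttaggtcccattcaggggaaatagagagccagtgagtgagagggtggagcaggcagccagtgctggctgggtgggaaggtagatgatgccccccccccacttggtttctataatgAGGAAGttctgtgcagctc
The motif begins 41 bases before the start in *Trem2*, there on the opposite strand, 46 and 17 bases before it in *Hcst* and 19 bases before it in *Inpp5d*. Searched on both strands, it was found in 4 of the 7 member genes with a window (the fourth is *Cd33*), and 29.5% of all 32851 windows hold it. These are matches of letters, and binding was not measured.

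The cells of each mouse carried a tag, were pooled in 1 library and were sequenced from the 3′ end of transcripts. The tables held 1257 to 2831 cells per control mouse and 2542 to 2704 per Arpc4ΔCx3cr1 mouse, of which 19863 of 19864 passed the filter, with 5251527 to 12878691 unique molecular identifiers (UMIs, each 1 captured molecule) on genes per mouse and 0 barcodes shared between mice. Clusters were named from marker genes as microglia-like (16284 cells), CAM-like (CNS-associated macrophages, 411 cells), monocyte-like (346 cells) and T cell-like (308 cells), beside smaller classes. A cluster led by *Ccl4* and *Ccl3* (754 cells, 655 of them from Arpc4ΔCx3cr1 mice) was set apart because its leading genes include a marker of brain tissue, and 1505 shallow cells stayed unnamed. All 12 microglia markers had UMIs in the microglia-like cells, with a summed level of 24791 to 25223 CPM (UMIs of a gene scaled to a common total of all UMIs) in control and 9969 to 14267 in Arpc4ΔCx3cr1 mice. Different clusters held most of the microglia-like cells in the 2 genotypes. The targeted gene *Arpc4* stood at 239, 216, 225 and 221 CPM in the microglia-like cells of control mice 1 to 4 and at 152, 148, 144 and 136 CPM in those of Arpc4ΔCx3cr1 mice 1 to 4, a log2 fold change of -0.63 (SE 0.06, adjusted p = 6.82e-06). Which exons the deletion removes is not given in the sources used here, and 3′ counts may include transcripts of the recombined allele. Arpc4ΔCx3cr1 mouse 1 stood apart from the other 7 mice, with *Xist* at 1456 CPM in its microglia-like cells against at most 16.4 CPM in any other mouse, and with most of its cells in a cluster of its own. By *Xist*, taken as a check on sex, it is the female mouse, so its sex cannot be told apart from its other traits. Except for *Xist*, results that rest on it are given with and without it.

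Of the 8 genes, *Tyrobp*, *Hcst* and *Grn* were higher and *Cd33* was lower in the microglia-like cells of Arpc4ΔCx3cr1 mice, while *Trem2*, *Syk*, *Plcg2* and *Inpp5d* did not pass the test. The test was edgeR's quasi-likelihood test on UMIs summed per mouse, adjusted by Benjamini-Hochberg over 12636 genes, and every fold change below is on the log2 scale from this fit with CPM scaled by TMM. The genotype moved many genes in these cells: 45.0% of all tested genes passed the threshold, 22.6% higher and 22.5% lower, and 43.3% had groups that did not overlap (21.5% higher, 21.8% lower). With library totals in place of TMM, 6259 genes passed, 2151 higher and 4108 lower, and the median of all genes moved from -0.01 to -0.11. The count of 4 called genes among 8 is thus near the background, and the members are described one by one.

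*Tyrobp*, the ITAM adaptor, was measured at 2720, 2662, 2715 and 2613 CPM in control mice 1 to 4 and at 3263, 3870, 4617 and 4376 CPM in Arpc4ΔCx3cr1 mice 1 to 4. Every Arpc4ΔCx3cr1 mouse lay above every control mouse, and mouse 1 lay closest to the controls. The means were 2677 ± 50.3 and 4032 ± 600 CPM (SD, n = 4 each), a fold of 1.51 and a log2 fold change of 0.59 (SE 0.10, 95% interval 0.38 to 0.80, adjusted p = 0.000476). Without Arpc4ΔCx3cr1 mouse 1 the log2 fold change was 0.68. It was 0.70 and 0.99 after the profile of empty droplets, barcodes with at most 100 UMIs that hold free RNA of the pool, had been subtracted at 10 and 25% of the UMIs. The same share was taken from every mouse, and an equal amount taken from unequal levels widens their ratio. Whether free RNA differed between genotypes was not tested. The summed level of monocyte markers in microglia-like cells was 15.5 to 21.5 CPM in control and 32.9 to 77.1 CPM in Arpc4ΔCx3cr1 mice, and that of CAM markers 167 to 181 and 67.7 to 163 CPM. Granulocyte markers summed to 388 to 409 CPM in control and 424 to 610 CPM in Arpc4ΔCx3cr1 mice, and B cell markers to 226 to 241 and 71.5 to 141 CPM. In the 1275 microglia-like cells without a UMI of a CAM, monocyte, T cell, B cell or granulocyte marker the log2 fold change of *Tyrobp* was 0.84. This filter removed most of the 16284 microglia-like cells, and a cell with few UMIs passes it more easily.

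*Trem2*, the receptor itself, was measured at 2112, 2040, 2069 and 2060 CPM in control mice and at 1327, 1970, 2234 and 2152 CPM in Arpc4ΔCx3cr1 mice. The control mice lay within a narrow band, mouse 1 of the Arpc4ΔCx3cr1 mice lay far below it, mouse 2 just below it and the other two above it, so the groups overlapped. The means were 2070 ± 30.3 and 1921 ± 411 CPM (SD, n = 4 each), and the log2 fold change of -0.11 (SE 0.13, 95% interval -0.40 to 0.19) did not pass the test (adjusted p = 0.536). Mouse 1 set its sign: without it the value was 0.04 (SE 0.05, adjusted p = 0.583).

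*Hcst*, the adaptor that couples to phosphatidylinositol 3-kinase, was measured at 36.6, 35.5, 34.4 and 40.6 CPM in control mice and 47.0, 45.5, 62.6 and 50.7 CPM in Arpc4ΔCx3cr1 mice. The groups did not overlap, with mouse 3 highest among the Arpc4ΔCx3cr1 mice. The means were 36.8 ± 2.68 and 51.4 ± 7.78 CPM (SD, n = 4 each), and *Hcst* rose with a log2 fold change of 0.48 (SE 0.10, 95% interval 0.25 to 0.71, adjusted p = 0.00313), without mouse 1 of 0.53. These levels lie below the 84.5 CPM of *Hcst* in empty droplets, and subtraction of their profile gave 0.59 at 10% and 0.89 at 25% of the UMIs. As for *Tyrobp*, an equal share taken from every mouse widens the ratio by itself, so these values are no test of free RNA. *Hcst* is a gene of lymphocytes too. The summed level of T cell markers in microglia-like cells was 1.35 to 2.19 CPM in control and 1.54 to 2.69 CPM in Arpc4ΔCx3cr1 mice and that of natural killer cell markers 0.522 to 1.46 and 2.59 to 4.23 CPM, with 8 of 8 and 7 of 7 markers detected. In the cells without another class's marker the log2 fold change of *Hcst* was 0.63 (adjusted p = 0.0424). Natural killer cell markers were not part of that filter, so cells with their UMIs were not removed.

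*Syk*, the kinase that docks on the ITAM, was measured at 121, 130, 126 and 127 CPM in control mice and at 135, 120, 158 and 111 CPM in Arpc4ΔCx3cr1 mice. The Arpc4ΔCx3cr1 mice lay on both sides of the controls. The log2 fold change was 0.05 (SE 0.10, 95% interval -0.16 to 0.27, adjusted p = 0.679). *Plcg2*, the phospholipase below it, was measured at 181, 190, 188 and 188 CPM in control mice and at 209, 193, 168 and 180 CPM in Arpc4ΔCx3cr1 mice, with a log2 fold change of 0.01 (SE 0.07, 95% interval -0.14 to 0.16, adjusted p = 0.955). For both genes the spread among Arpc4ΔCx3cr1 mice exceeded that among the controls, and the sign of the value turned under other settings.

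Of the inhibitors, *Cd33* passed the test and *Inpp5d* did not. *Cd33* was measured at 332, 298, 312 and 319 CPM in control mice and at 161, 227, 206 and 216 CPM in Arpc4ΔCx3cr1 mice. Every Arpc4ΔCx3cr1 mouse lay below every control mouse, and mouse 1 lay lowest. The means were 315 ± 14.5 and 202 ± 28.9 CPM (SD, n = 4 each), and *Cd33* fell with a log2 fold change of -0.64 (SE 0.10, 95% interval -0.85 to -0.43, adjusted p = 0.000283). It was -0.54 without mouse 1 and -0.60 in the cells without another class's marker. *Inpp5d*, the lipid phosphatase, was measured at 1160.5, 1112, 1131 and 1120 CPM in control mice and at 995, 1030.3, 1117 and 1050 CPM in Arpc4ΔCx3cr1 mice, where only mouse 3 reached the range of the controls. Its log2 fold change of -0.11 (SE 0.05, 95% interval -0.22 to 0.0045) did not pass the test (adjusted p = 0.108). It passed when library totals replaced TMM (-0.21, adjusted p = 0.00365) and when the set-apart *Ccl4*-led cluster was counted as microglia-like (-0.14, adjusted p = 0.0389).

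*Grn*, which encodes progranulin, was measured at 653, 622, 646 and 675 CPM in control mice and at 742, 734, 763 and 781 CPM in Arpc4ΔCx3cr1 mice. The groups did not overlap, and the spread was alike in both. The means were 649 ± 21.5 and 755 ± 21.2 CPM (SD, n = 4 each), and *Grn* rose by a fold of 1.16, a log2 fold change of 0.22 (SE 0.05, 95% interval 0.11 to 0.33, adjusted p = 0.00403). The call was lost with library totals (0.11, adjusted p = 0.0696) and in the cells without another class's marker (0.15, adjusted p = 0.237).

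**Figure D1:**
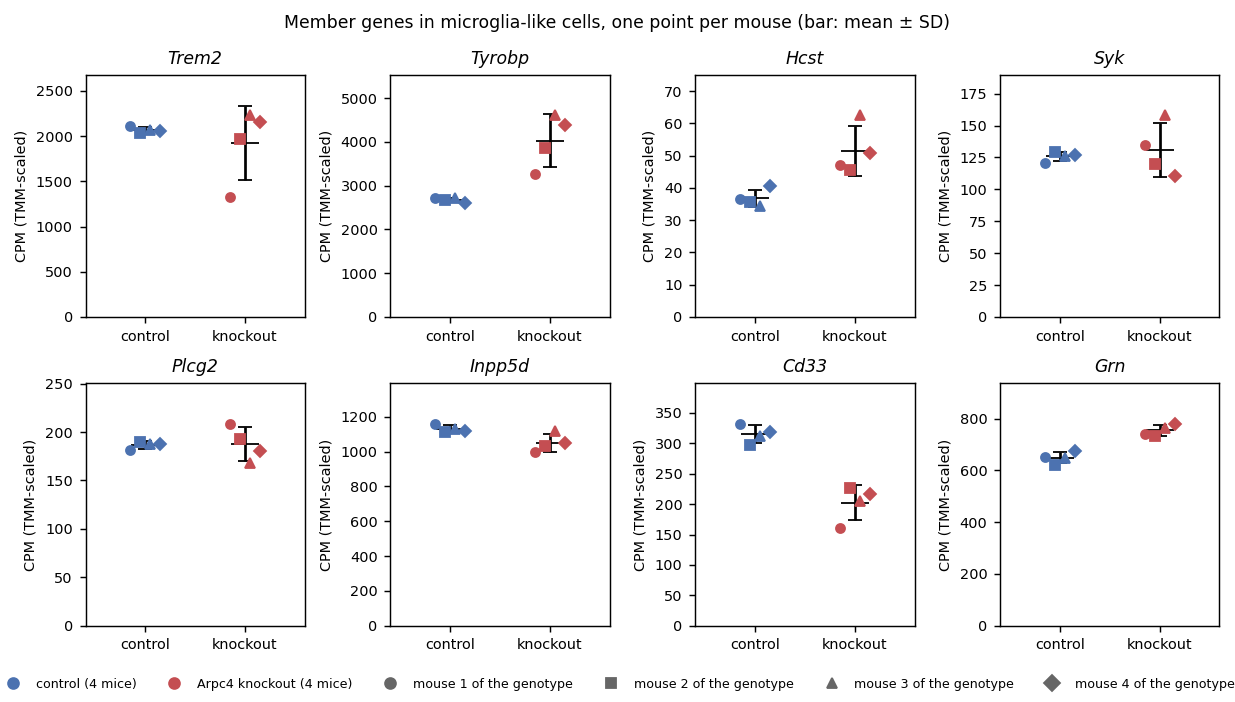
Level of each of the 8 genes in microglia-like cells, in CPM scaled by TMM on a linear axis from 0, with 1 point per mouse (4 control, 4 Arpc4ΔCx3cr1) and bars for the mean ± SD. The control and Arpc4ΔCx3cr1 points of *Tyrobp*, *Hcst*, *Cd33* and *Grn* do not overlap, while for *Trem2* mouse 1 of the Arpc4ΔCx3cr1 mice stands alone at 1327 CPM.

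The ratio of receptor to adaptor transcripts within a mouse does not depend on the library total or its scaling. Per 100 *Tyrobp* UMIs there were 77.6, 76.6, 76.2 and 78.9 *Trem2* UMIs in the microglia-like cells of control mice and 40.7, 50.9, 48.4 and 49.2 in those of Arpc4ΔCx3cr1 mice. All 4 Arpc4ΔCx3cr1 mice lay below all controls, and mouse 1 lay lowest but apart from the other three by less than from the controls. The means were 77.3 ± 1.18 and 47.3 ± 4.53 (SD, n = 4 each). The two-sided exact permutation test over mice gave p = 0.0286, which is the minimum for 4 against 4 mice, and 0.0571 after adjustment over the 2 ratios compared. The difference was -30.0, and -27.8 without mouse 1. Subtraction of the empty droplet profile at 10% of the UMIs widened it to -37.4. That profile holds 50.1 *Trem2* UMIs per 100 *Tyrobp* UMIs, and taking it from every mouse moves the ratios away from this value. The ratio of *Hcst* to *Tyrobp* overlapped between genotypes, with 1.35, 1.33, 1.27 and 1.55 *Hcst* UMIs per 100 *Tyrobp* UMIs in control mice and 1.44, 1.17, 1.36 and 1.16 in Arpc4ΔCx3cr1 mice (exact permutation test, p = 0.40).

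The share of microglia-like cells with a UMI of each gene was taken with every cell thinned to 2000 UMIs, which left out 288 control and 328 Arpc4ΔCx3cr1 cells. *Trem2* was found in 97.5, 97.1, 97.8 and 96.5% of the cells of control mice and in 89.4, 95.02, 95.9 and 94.98% of those of Arpc4ΔCx3cr1 mice, lower in 4 of 4 mice. *Cd33* was found in 47.4, 44.8, 46.5 and 48.2% of the cells of control mice and in 26.8, 34.7, 31.2 and 33.4% of those of Arpc4ΔCx3cr1 mice, so its lower level went with fewer cells with a UMI. *Inpp5d* was found in 83.4 ± 1.08% against 78.4 ± 1.51% of cells (mean ± SD, n = 4 each), again without overlap. *Tyrobp* was close to saturation in both genotypes, with means of 98.8 and 99.4%, so its share carries little of the difference in level. For these 4 genes the exact permutation test gave p = 0.0286 each, the minimum for 4 against 4 mice, and 0.0571 adjusted over the 8 genes. How many of all genes separate by share of cells was not computed. By level, 43.3% of tested genes had groups that did not overlap. For *Hcst* the means were 7.42 and 9.45% (exact permutation test, adjusted p = 0.0914), for *Plcg2* 30.5 and 27.7% (0.114), for *Syk* 22.1 and 20.5% (0.392) and for *Grn* 71.6 and 70.8% (0.457). No adjusted value reached 0.05, which 4 genes at the minimum p cannot give among 8.

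Free RNA puts UMIs into cells that do not express a gene. In control T cell-like cells, which should lack *Trem2*, 45.0% of 129 cells had a *Trem2* UMI at 2000 UMIs (exact 95% binomial interval 36.2 to 54.0%) and 69.8% a *Tyrobp* UMI, with median depths of 4479.5 UMIs in T cell-like and 3993 UMIs in microglia-like cells before thinning. The same cells had a *Cd33* UMI in 18.6% and a *Grn* UMI in 31.0% of cases. The microglia-like shares of these genes lie above these levels in every mouse. The T cell-like cluster was led by *Gzma*, *Ccl5* and *Nkg7*, and no natural killer cell class was named. Natural killer cells may lie in it, so its *Tyrobp* share need not be free RNA alone, which was not tested. For *Hcst*, which T cells express, the share in control B cell-like cells was 4.17% of 24 cells (interval 0.105 to 21.1%), so the 7.42% in microglia-like cells cannot be told from background at this depth. Intervals cover counting error only.

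**Figure D2:**
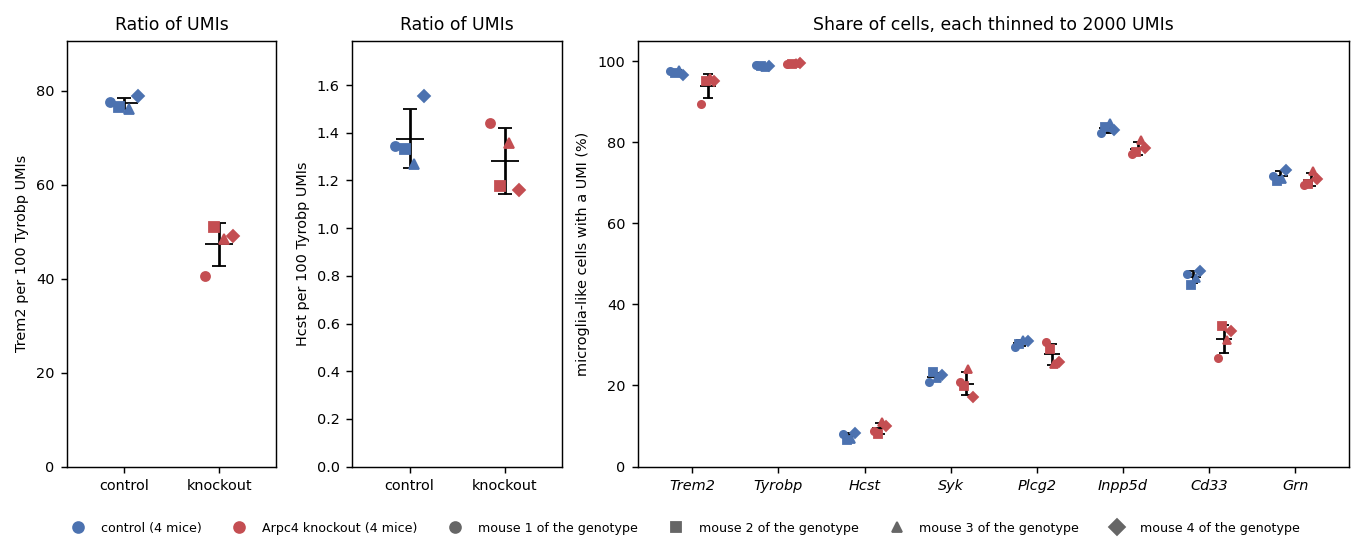
Left and middle, *Trem2* and *Hcst* UMIs per 100 *Tyrobp* UMIs in microglia-like cells; right, the percent of microglia-like cells with a UMI of each gene at 2000 UMIs per cell; points are mice (4 control, 4 Arpc4ΔCx3cr1) and bars the mean ± SD. The *Trem2* ratio falls into separate bands, 76.2 to 78.9 in control and 40.7 to 50.9 in Arpc4ΔCx3cr1 mice, and the *Cd33* shares do not overlap.

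Around the 8 members, 75 other genes of the pathway were counted in 9 groups. In microglia-like cells 58 of them passed the filter, 22 were higher, 15 were lower and 21 did not pass the test, with a median log2 fold change of 0.11 beside -0.01 over all tested genes and 45.0% of all genes called. The named genes are the 2 largest rises and the 2 largest falls of each group among those past the threshold. Other genes are named where a count is small, and these were added after their values had been seen. Siglec, PIR, CD300, PILR and SIRP genes have close copies, and 3′ reads may be split between them.

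Of the 15 receptors that pair with TYROBP or HCST, 5 could be tested, of which 3 rose, 1 fell and *Clec5a* did not pass (0.22, adjusted p = 0.0780). *Cd300lb*, an activating lipid receptor, rose from a mean of 1.26 to 12.5 CPM (log2 fold change 3.29, adjusted p = 2.07e-06), and *Pilrb2* (2.45) and *Cd200r4* (2.11) rose from levels under 3 CPM. *Siglech*, a TYROBP-coupled Siglec that marks resting microglia, was measured at 1530.4, 1385, 1524 and 1481 CPM in control mice and at 417, 803, 814 and 737 CPM in Arpc4ΔCx3cr1 mice, a fall of 1.10 on the log2 scale (adjusted p = 0.000412). It is also 1 of the 12 microglia markers. The other ITAM adaptor that could be tested, *Fcer1g*, which serves Fc receptors, was 0.23 higher (adjusted p = 0.0400), a call that was lost when any one of the control mice was left out.

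Of the 5 Src family kinases, which phosphorylate ITAMs, 3 rose and none fell. *Fgr* was measured at 9.503, 7.14, 13.4 and 8.81 CPM in control mice and at 94.7, 111, 120 and 125 CPM in Arpc4ΔCx3cr1 mice, a log2 fold change of 3.53 (SE 0.16, adjusted p = 1.14e-07). *Fyn* (1.39) and *Src* (0.61) rose as well. *Lyn* gave -0.04 (adjusted p = 0.492).

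Of 20 genes downstream of SYK, 19 were tested, 5 rose and 5 fell. The rises were led by *Vav3*, a guanine nucleotide exchange factor (2.51, from 0.95 to 5.83 CPM), and *Tec*, a kinase that acts on phospholipase C gamma (0.42). The falls were led by *Plcg1*, the close relative of *Plcg2* (-0.89, from 21.0 to 11.2 CPM), and *Card9*, an adaptor to NF-κB (-0.48). *Vav3* was 3.36 without control mouse 4 and lost its call over all cells of each mouse (0.25, adjusted p = 0.616). In the cells without another class's marker *Tec* gave 0.45 (adjusted p = 0.0837), a value no smaller than in the main fit, and *Card9* -0.014 (adjusted p = 0.982). The group's median was -0.0033.

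Of 8 tested phosphatases and other brakes, none rose and 4 fell, among them *Dok3* (-1.30), an adaptor that inhibits ITAM signals, *Dok1* (-0.35) and *Cbl* (-0.30). In the cells without another class's marker the call of *Dok3* was lost (-0.87, adjusted p = 0.122). Of the 11 genes listed as inhibitory receptors, 6 rose and 3 fell. *Cd300lf* rose by 3.92 and *Lilrb4a* by 3.88 on the log2 scale, from 4.27 to 63.7 CPM and from 6.72 to 99.0 CPM. *Cd300lf* stood at 154 CPM in Arpc4ΔCx3cr1 mouse 1 and at 31.8, 32.6 and 36.4 CPM in the others, and without mouse 1 it rose by 2.99 (adjusted p = 8.49e-10). *Siglecg* (-2.36) and *Siglece* (-1.01), Siglecs like CD33, fell together with *Sirpa* (-0.59), while the Siglecs *Siglec1*, *Cd22* and *Siglecf* were among those that rose. In the cells without another class's marker the call of *Siglece* was lost (-0.56, adjusted p = 0.245).

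Of 5 TREM2 ligands, *Apoe* and *Lgals3* could be tested and both rose. *Apoe*, the apolipoprotein, rose from a range of 1205 to 1828 CPM in control mice to 11470.5 to 31173 CPM in Arpc4ΔCx3cr1 mice (log2 fold change 3.54, adjusted p = 5.75e-06), with mouse 1 highest, beside 16538 CPM in empty droplets. *Lgals3*, galectin-3, rose by 2.27 (adjusted p = 0.00705), although control mouse 1, at 45.4 CPM, lay above the 40.4 CPM of Arpc4ΔCx3cr1 mouse 2. Without control mouse 1 its value was 3.18, and over all cells of each mouse its call was lost (1.17, adjusted p = 0.0577). Of the sheddases that cleave TREM2 from the surface, *Adam17* was 0.22 higher (adjusted p = 0.0169) and *Adam10* gave -0.07 (adjusted p = 0.213). The call of *Adam17* was lost with library totals in place of TMM (0.11, adjusted p = 0.168), in the cells without another class's marker, in cells thinned to 2000 UMIs and without control mouse 1 or Arpc4ΔCx3cr1 mouse 4. Of 5 tested partners of progranulin, *Ctsd*, a lysosomal protease, rose (0.33, but 0.22 with library totals, adjusted p = 0.0503), *Sort1*, which takes progranulin into cells, fell by 0.91 from 140 to 74.4 CPM (adjusted p = 2.29e-06), and *Tmem106b* fell (-0.40).

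**Figure D3:**
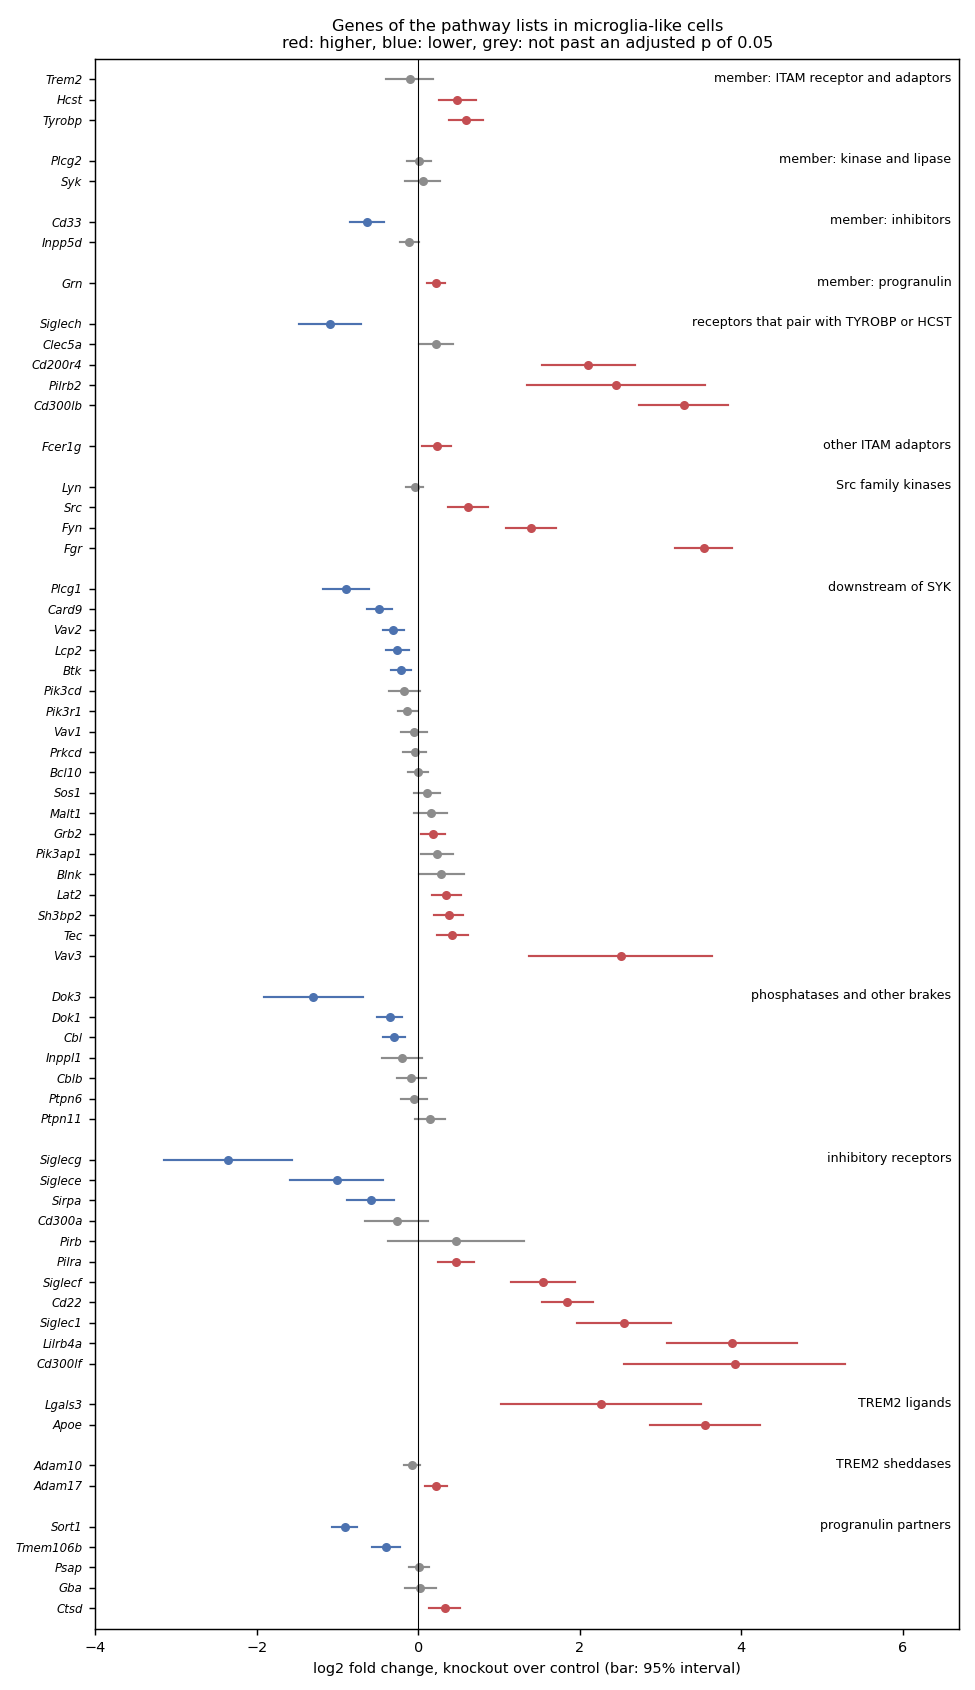
Log2 fold change, Arpc4ΔCx3cr1 over control, of the 8 members and of tested genes of each pathway group in microglia-like cells, with bars for the 95% interval, red for higher, blue for lower and grey for not past an adjusted p of 0.05. *Cd300lf*, *Lilrb4a*, *Apoe* and *Fgr* lie beyond 3.5 (*Cd300lf* at 2.99 without Arpc4ΔCx3cr1 mouse 1), while the 8 members lie between -0.64 and 0.59.

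Across cell classes the members fell into different patterns. These levels are CPM by totals per mouse in classes with at least 10 cells of a mouse, given as a description because the classes come from clustering of the same cells. Among the named classes *Trem2* was highest in microglia-like cells (mean of control mice 2143 CPM, range 2118 to 2160), followed by CAM-like cells (987, range 946 to 1019) and T cell-like cells (702, range 583 to 794), with no overlap between these neighbours. The shallow unnamed cells of control mice held 2407 CPM and the set-apart cells 2194 CPM. In monocyte-like cells *Trem2* was at 175 CPM (range 42.01 to 311), and B cell-like and proliferating cells, with 2 mice each, overlapped with their neighbours in the order. *Tyrobp* was high in all myeloid classes, at 3311 CPM in CAM-like, 2965 in monocyte-like and 2771 in microglia-like cells, and each of these ranges overlapped with the next. T cell-like cells followed at 1507 CPM. The level in empty droplets was 2756 CPM for *Trem2* and 5500 CPM for *Tyrobp*, above every class of control mice, so the values in T cell-like cells cannot be told from free RNA.

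*Hcst* was highest in T cell-like cells, with 518 CPM (range 486 to 582), far above monocyte-like (61.1), CAM-like (59.7) and microglia-like cells (38.1). Empty droplets held 84.5 CPM, so T cell-like cells were the one class with 2 or more control mice above them throughout. A single control mouse with enough granulocyte-like cells gave 218 CPM. Among the named classes *Syk* was highest in B cell-like cells (216 CPM in 2 control mice) and *Plcg2* too (210 CPM), with 176 and 237 CPM in the unnamed cells. Both proteins also serve the B cell receptor. Microglia-like cells followed with 130 CPM of *Syk*, where each range overlapped with the next from B cell-like over proliferating to microglia-like cells, and with 193 CPM of *Plcg2*, below the B cell-like range. Empty droplets held 77.0 and 107 CPM, below the microglia-like levels of both genes.

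*Inpp5d* was, among the named classes, highest in microglia-like cells (1171 CPM, range 1155 to 1187), above CAM-like (540) and T cell-like cells (533), which overlapped with each other and lay near the 526 CPM of empty droplets. In the unnamed cells of control mice it was 1595 CPM. *Cd33* was likewise highest in microglia-like cells (326 CPM, range 309 to 340), above CAM-like (186) and T cell-like cells (118), with 341 CPM in unnamed cells and 289 CPM in empty droplets. For *Grn*, microglia-like (672 CPM) and CAM-like cells (644 CPM) overlapped, and monocyte-like cells held 203 CPM, with 730 CPM in empty droplets. The number of *Trem2* UMIs per 100 *Tyrobp* UMIs, pooled over control mice, was 77.3 in microglia-like, 29.7 in CAM-like, 6.28 in monocyte-like and 45.7 in T cell-like cells, and 50.1 in empty droplets. In Arpc4ΔCx3cr1 mice it was 47.5, 21.8, 6.28 and 33.4 in the same classes. In control mice the ratio of T cell-like cells thus lay close to that of the free RNA, with microglia-like cells above it and monocyte-like cells below it, while in Arpc4ΔCx3cr1 mice the ratios of these classes all lay below it. In the shallow unnamed cells, with a median of 1204 UMIs, it was 185 in control and 127 in Arpc4ΔCx3cr1 mice.

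**Figure D4:**
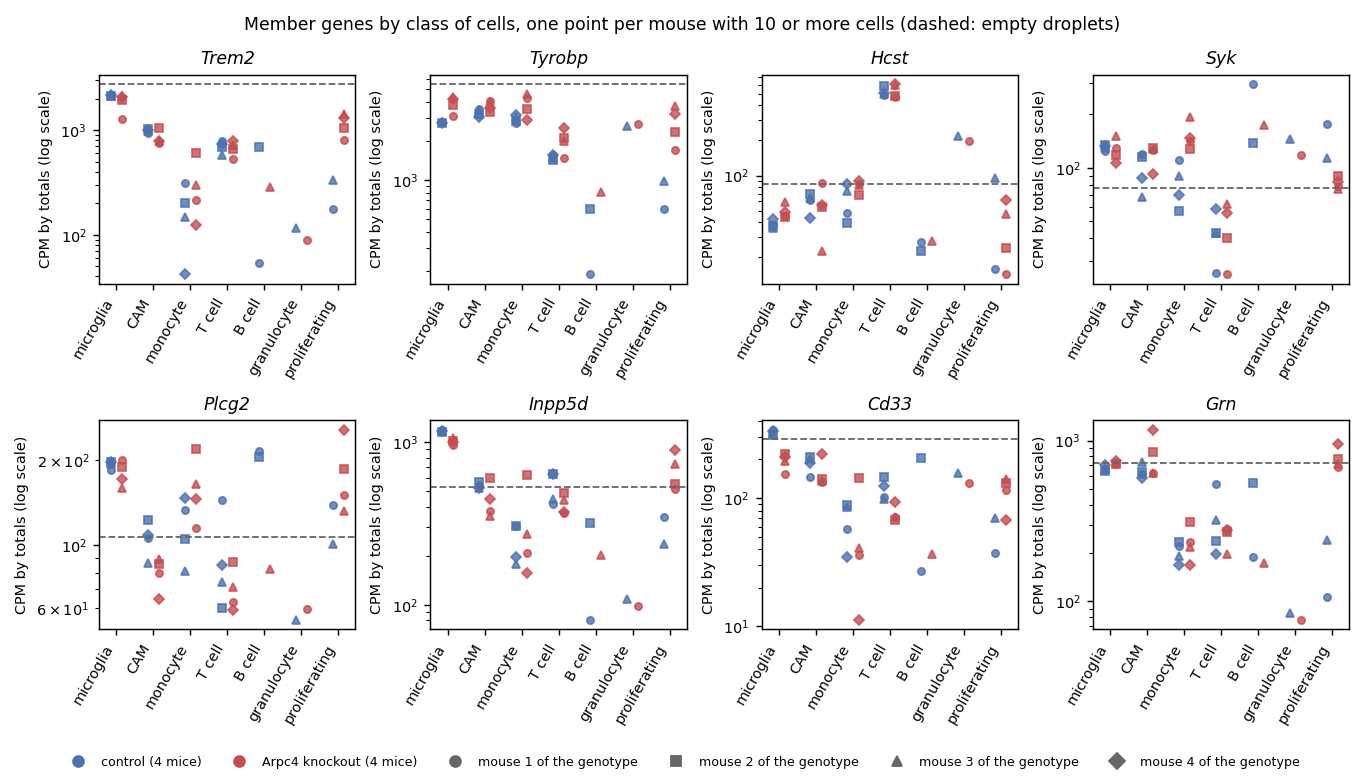
Level of each member by class of cells, in CPM by totals on a log axis, with 1 point per mouse with at least 10 cells of the class (blue control, red Arpc4ΔCx3cr1) and a dashed line for the level in empty droplets; levels of 0 are not drawn. Among the classes drawn, *Trem2*, *Inpp5d* and *Cd33* are highest in microglia-like cells of control mice, *Tyrobp* has means of 2771 to 3311 CPM in the 3 main myeloid classes of these mice, and *Hcst* stands at 486 to 582 CPM in T cell-like cells of control mice.

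By the likeness of their levels over 21 class sums of control mice in 7 classes, among 8980 genes, the genes closest to *Trem2* were *Lgmn* (Pearson r = 0.982), *Ctsl* (0.979), *Ctsd* (0.9752), *Scamp2* (0.973) and *Cx3cr1* (0.970). *Lgmn*, *Ctsl* and *Ctsd* encode lysosomal proteases, and *Cx3cr1* the fractalkine receptor whose promoter drives the Cre. The genes closest to *Tyrobp* were *Fcer1g* (0.972), *Ccl6* (0.935), *Tm6sf1* (0.929), *Tnfrsf1a* (0.926) and *Il13ra1* (0.904). *Fcer1g* encodes the other ITAM adaptor of myeloid cells. The sums share 1 library and the microglia-like sums are far deeper than the others, so these values are a description.

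Outside microglia, no member passed the test in CAM-like or monocyte-like cells. In CAM-like cells 38 of 3346 tested genes were called (1.14%), and 6.63% had groups that did not overlap. *Arpc4* itself was measured there at 257, 189, 244 and 205 CPM in control and 315, 230, 275 and 262 CPM in Arpc4ΔCx3cr1 mice (log2 fold change 0.28, adjusted p = 0.644). With 22 to 111 cells per mouse, the CAM-like values were wide: *Tyrobp* was 4162, 3665, 4117 and 3511 CPM in control mice and 5236, 3754, 4866 and 4029 CPM in Arpc4ΔCx3cr1 mice, a log2 fold change of 0.21 (95% interval -0.18 to 0.60, adjusted p = 0.704). *Trem2* was 1115, 1166, 1166 and 1156 CPM in control mice and 961, 1187, 973 and 889 CPM in Arpc4ΔCx3cr1 mice, with a log2 fold change of -0.20 (95% interval -0.59 to 0.18, adjusted p = 0.719). The other six members lay between -0.34 (*Plcg2*) and 0.37 (*Syk*), with adjusted p from 0.5503 to 0.963. Of the 33 other pathway genes tested, *Lgals3* (1.69) and *Pirb* (1.61) rose and *Siglech* fell by 1.46 on the log2 scale. *Siglech*, a microglia marker, was at 340, 480, 464 and 385 CPM in these cells of control mice, below its 734 CPM in empty droplets. Whether its fall in CAM-like cells comes from free RNA was not tested.

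In monocyte-like cells, 222 of 3128 tested genes were called (7.10%), and 13.7% had groups that did not overlap. *Syk* came closest, with 135, 70.5, 108 and 85.1 CPM in control mice and 156, 137, 208 and 161 CPM in Arpc4ΔCx3cr1 mice. Its groups did not overlap, but the log2 fold change of 0.75 (SE 0.25, 95% interval 0.20 to 1.30) did not pass the test (adjusted p = 0.106). *Tyrobp* gave 0.21 (adjusted p = 0.450) and *Trem2* 0.59 (adjusted p = 0.557), and the other five members lay between -0.61 (*Cd33*) and 0.28 (*Hcst*). Of the 41 other pathway genes tested, 7 rose, namely the receptors *Sirpb1c* (1.69), *Trem3* (1.504), *Treml4* (1.43) and *Pilrb2* (1.42), the kinases *Fgr* (0.89) and *Lyn* (0.77) and the adaptor *Fcer1g* (0.54), and *Klrk1*, which encodes the HCST-coupled receptor NKG2D, fell by 2.20 on the log2 scale. *Arpc4* gave a log2 fold change of -0.04 in these cells (adjusted p = 0.9754).

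Whether the genotype effect itself differed between CAM-like and microglia-like cells was tested as an interaction with the mouse as a block. Of 11154 genes, 726 were called (6.51%), 113 higher and 613 lower, with a median of -0.19 over all genes. No member passed. The value for *Tyrobp* was -0.50 (SE 0.21, adjusted p = 0.168), CAM-like minus microglia-like, and it passed without Arpc4ΔCx3cr1 mouse 1 (-0.69, adjusted p = 0.0208). *Hcst* gave -0.69 (adjusted p = 0.385), and the adjusted p of the other six members was 0.476 to 0.988.

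Within microglia, the levels were read in 12 clusters formed from 17038 cells, the set-apart cells included, without the 8 members and without the 75 other pathway genes. Clusters 1, 2, 3 and 7 held mostly control cells (1.34 to 3.18% Arpc4ΔCx3cr1 cells with each mouse weighted equally), and the other eight held 82.8 to 99.8% Arpc4ΔCx3cr1 cells. Cluster 4, led by *Xist*, came to 97.5% from Arpc4ΔCx3cr1 mouse 1. These levels are CPM by totals with no test. *Tyrobp* was highest in cluster 10, led by *Cst7*, *Fabp5* and *Lgals3*, at 5349, 6581, 9884 and 9233 CPM in Arpc4ΔCx3cr1 mice 1 to 4. It was 5256 to 6419 CPM in cluster 6, led by *Ttr* and *Cst7*, and among clusters of mostly control cells it ran from 2073 to 2132 CPM in cluster 1 to 4323 to 4610 CPM in cluster 7 of control mice. The difference between genotypes could be read within 2 clusters with at least 10 cells of all 8 mice. In cluster 8, *Tyrobp* was 3112 to 3426 CPM in control and 4728 to 5251 CPM in Arpc4ΔCx3cr1 mice, without overlap. Cluster 8 was led by *Ccl4* and *Ccl3*, like the set-apart cells, which the main test did not count as microglia-like. In cluster 0, led by *Ctnna3*, *Tyrobp* was 2419 to 3264 and 2813 to 3808 CPM, with overlap.

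*Trem2* varied widely among clusters of both genotypes. In Arpc4ΔCx3cr1 mice it was lowest in cluster 5, led by *Ms4a7*, at 891, 1299, 1161 and 1332 CPM, and reached 2071, 2995, 3464 and 3402 CPM in cluster 10. Among clusters of mostly control cells it ran, in control mice, from 1688 to 1733 CPM in cluster 1 to 3344 to 3419 CPM in cluster 7. Mouse 1 was the lowest of the Arpc4ΔCx3cr1 mice in each of clusters 0, 5, 6, 8, 9 and 10, so its low *Trem2* was not limited to the cluster it filled alone. The few cells of Arpc4ΔCx3cr1 mouse 2 in cluster 1 (32 cells) held 1652 CPM of *Trem2* and 2075 CPM of *Tyrobp*.

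*Inpp5d* varied widely among clusters of both genotypes. In control mice it ran from 409 to 429 CPM in cluster 7 to 1408 to 1492 CPM in cluster 1. In Arpc4ΔCx3cr1 mice it was 148 to 317 CPM in cluster 10 and 1186 to 1477 CPM in cluster 0, where control mice overlapped at 1022 to 1488 CPM. *Cd33* in cluster 8 was 207 to 254 CPM in control and 118 to 140 CPM in Arpc4ΔCx3cr1 mice, without overlap, while in cluster 0 the ranges of 209 to 289 and 204 to 236 CPM overlapped. *Grn* was measured in Arpc4ΔCx3cr1 mice at 1095 to 1272 CPM in cluster 10 and at 361 to 509 CPM in cluster 5, and in control mice at 1026 to 1112 CPM in cluster 7. *Syk* and *Plcg2* stood at 31.5 to 69.2 CPM and 49.3 to 77.9 CPM in Arpc4ΔCx3cr1 cells of cluster 10, beside 118 to 185 CPM and 187 to 317 CPM in those of cluster 0. Low levels were not limited to cluster 10. They were 63.5 to 93.9 and 84.9 to 139 CPM in Arpc4ΔCx3cr1 cells of cluster 6, and 52.8 to 81.3 and 94.3 to 116 CPM in control cells of cluster 7.

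**Figure D5:**
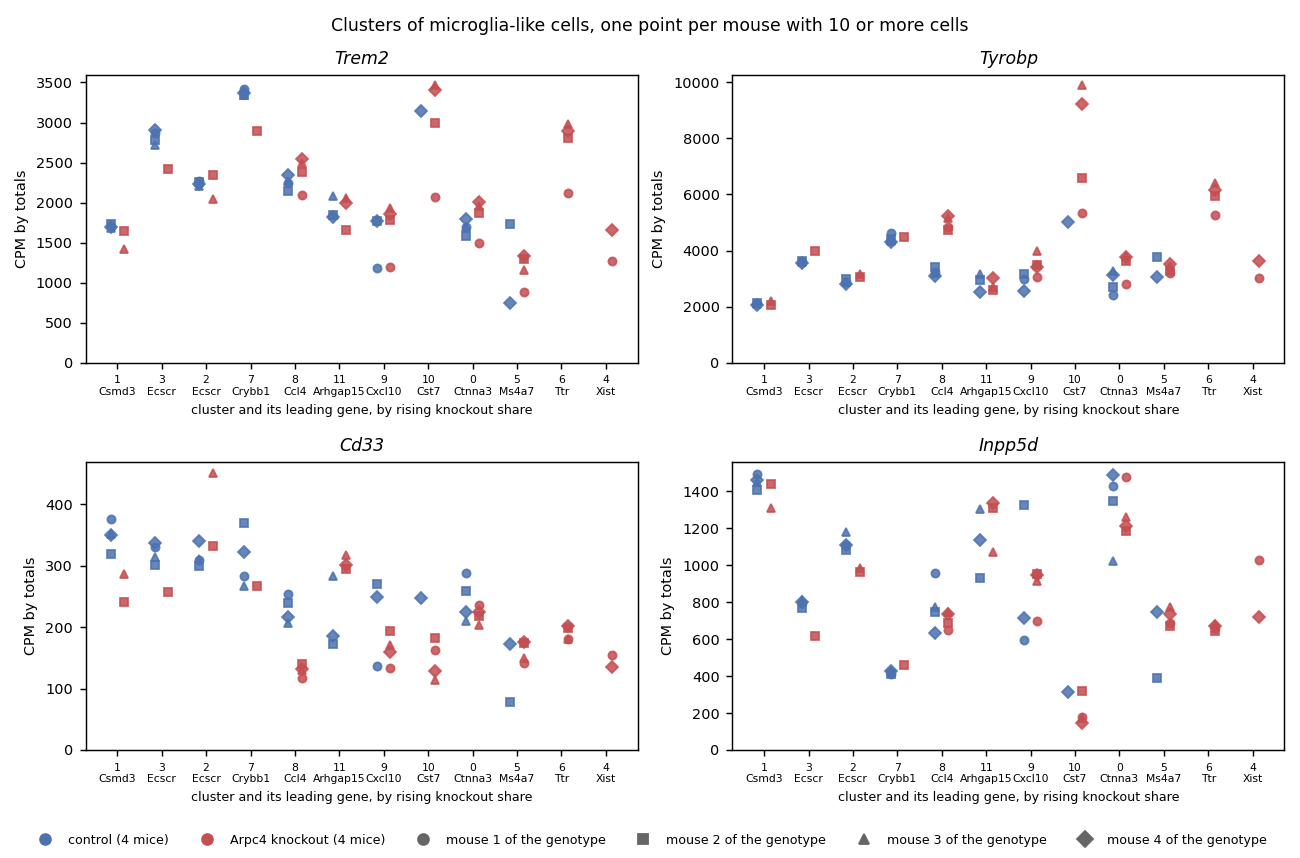
Level of *Trem2*, *Tyrobp*, *Cd33* and *Inpp5d* in 12 clusters of microglia-like and set-apart cells, in CPM by totals, ordered by rising share of Arpc4ΔCx3cr1 cells, with 1 point per mouse with at least 10 cells of the cluster. *Tyrobp* reaches 9884 CPM in cluster 10, where *Inpp5d* is at 148 to 317 CPM in Arpc4ΔCx3cr1 mice, and the genotypes are apart for *Tyrobp* and *Cd33* in cluster 8.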

How the data were processed

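The authors processed the 3′ reads with Cell Ranger (the submitters' notes list 6.1.2) on mm10, assigned cells to mice by tags and deposited raw UMI counts, not corrected for ambient RNA. Groups came from the labels of the mice. Cells under 200 genes or over 20% mitochondrial UMIs were removed and the rest clustered with Seurat 5.3.0 (R 4.3.3, 10000 variable genes without the members, 20 components, resolution 0.8) and named from markers. No doublet caller was run. Each deposited cell carries 1 tag assignment, which does not mark doublets of cells from the same mouse. UMIs were summed per mouse and class (at least 10 cells) and tested with edgeR 4.0.16 (filterByExpr, TMM, quasi-likelihood, Benjamini-Hochberg adjusted p under 0.05), with DESeq2 1.42.0 as an alternative. Microglia-like sums held 4108183 to 10400686 UMIs over the tested genes. Shares and ratios were compared with two-sided exact permutation tests over mice. Promoters came from RefSeq and positions from GENCODE vM21. Other steps used Python 3.11.15.

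The text names the 8 members, the 2 largest called rises and falls of each pathway list, the 5 genes most like *Trem2* and *Tyrobp*, *Arpc4* and *Xist*. The members and lists were chosen with earlier results of these data known. The mouse numbers pair nothing: deviations of mice of the same number correlated at -0.08 to 0.00. Statistical steps were tested on simulated data. Some genes of the lists are counted but not reported by name. Bulk RNA sequencing was not analysed here.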

Additional observations from a re-analysis of the deposited data

Results flagged for a closer look

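Of 84 groups of 4 mice looked at for a mouse far from the others, 3 were marked, and chance marks about 1 in 20. In CAM-like cells of Arpc4ΔCx3cr1 mice, mouse 4 stood apart for *Cd33* at 251 CPM, with 157 to 170 CPM in the other mice. In T cell-like cells of Arpc4ΔCx3cr1 mice, mouse 3 stood apart for *Grn* at 197 CPM, with 268 to 282 CPM in the others. Among microglia-like cells of Arpc4ΔCx3cr1 mice, mouse 1 stood apart for the share with a *Trem2* UMI, at 89.4%.

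The genes looked at here were the members, the named pathway genes, *Arpc4* and *Xist*. For 8 of them, none a member, the genotype effect differed between CAM-like and microglia-like cells in edgeR's interaction test. *Pik3ap1*, a pathway gene not named above, passed this test as well (adjusted p = 0.0325). The log2 difference, CAM-like minus microglia-like, was -3.72 for *Apoe* (adjusted p = 1.30e-38), -3.84 for *Lilrb4a* (adjusted p = 4.37e-29), -2.55 for *Fgr* (adjusted p = 0.00956) and -1.88 for *Vav3* (adjusted p = 0.000464). It was 1.87 for *Dok3* (adjusted p = 0.000485), 1.28 for *Siglece* (adjusted p = 0.0219) and 0.79 for *Arpc4* (adjusted p = 0.0170). For *Xist* it was -3.31 (adjusted p = 1.63e-08), and its value without Arpc4ΔCx3cr1 mouse 1 is not reported here.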

How the results depend on the processing

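*Tyrobp*, *Hcst* and *Cd33* kept their direction and passed the test in microglia-like cells under all 21 alternatives, *Grn* under 19, *Inpp5d* under 2, and *Trem2*, *Syk* and *Plcg2* under none. Among these, the subtractions of the empty droplet profile took the same share from every mouse, so they do not test a difference in free RNA. Over these alternatives the adjusted p ran from 0.000292 to 0.0424 for *Hcst*, from 4.28e-05 to 0.237 for *Grn*, from 0.00365 to 0.269 for *Inpp5d* and from 0.201 to 0.930 for *Trem2*. In cells without another class's marker UMI (6828 genes tested in 1275 cells) the count of called genes was 1653, *Grn* was 0.15 and no longer passed, *Syk* -0.17 and *Plcg2* -0.31. With library totals *Grn* was 0.11 and no longer passed, *Inpp5d* was -0.21 and now passed, *Syk* was -0.052 and *Plcg2* -0.10. With the set-apart cluster, an alternative added after seeing the data, *Inpp5d* was -0.14 and now passed, and *Plcg2* was -0.0097. *Plcg2* was -0.046 at 2000 UMIs per cell. Not thinned, the share of cells with a *Syk* UMI differed by 1.23 percentage points. With the mouse number as a replicate block, 5515 genes were called in microglia-like cells (main 5689), *Plcg2* was -0.0019 and *Grn* in monocyte-like cells -0.0023, and no other member changed its call or direction; the numbers pair nothing.

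Leaving out each mouse in turn gave, in microglia-like cells, 4986 to 6264 called genes, *Trem2* from -0.19 to 0.036 (positive without Arpc4ΔCx3cr1 mouse 1), *Syk* from -0.050 to 0.13 and *Plcg2* from -0.049 to 0.055. In CAM-like cells it gave 12 to 59 called genes (12 to 22 without any one control mouse or Arpc4ΔCx3cr1 mouse 1, 59 without Arpc4ΔCx3cr1 mouse 4) and *Hcst*, which passed the filter in 4 of the 8 fits, those without an Arpc4ΔCx3cr1 mouse, from -0.52 to 0.20. In monocyte-like cells it gave 90 to 240 called genes (90 to 132 without control mouse 1, 2 or 4 or Arpc4ΔCx3cr1 mouse 3), *Inpp5d* from -0.32 to 0.34 and *Grn* from -0.081 to 0.10. In the interaction, *Tyrobp* ran from -0.69 (past the threshold) to -0.36 and *Grn* from -0.13 to 0.12. The cause of these changes was not tested. Of 452 values of the 22 named genes that are not members, 433 kept their call, 19 lost it and 0 changed sign. CAM-like and monocyte-like cells were few, which limits what these sums can show.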
